A study of Mus musculus with 170 samples.

Results

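Cardiomyocytes (CMs) of the embryonic heart contract and divide at the same time, and the comparison here set those with the highest levels of mitotic transcripts against those with the lowest, all from hearts with a deletion of Dgcr8. The cells were chosen by measured values. Of 69 conditional knockout (cKO) cells in the expression table, 68 had a mean log2(TPM + 1) of at least 8.5 over 15 CM genes (Tnnt2, Myl4, Myl7, Actc1, Tnnc1, Tnni1, Myh6, Myh7, Ttn, Myl3, Actn2, Ryr2, Nebl, Smpx and Csrp3) and were called CMs. TPM is a length-scaled share of the transcripts of a cell, set to a fixed total in every cell. Within each of 2 batches of 34 CMs, the cells were ranked by the mean log2(TPM + 1) of 8 genes: Mki67, Top2a, Ccnb1, Cdk1, Aurkb, Plk1, Cenpf and Ccna2. The top 11 and the bottom 11 of each batch were joined into 22 mitotic-high and 22 mitotic-low CMs, and the 24 between them formed a middle group, out of 143 cells in the whole table.

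All ranked cells came from the ventricular part of hearts of C57BL/6 mouse embryos at embryonic day 9.5. The cKO embryos carried Mesp1Cre/+, both Dgcr8 alleles floxed and a membrane Tomato to membrane GFP reporter that marks Cre activity. Recombination of Dgcr8 in single cells was not measured here. Dgcr8 binds primary microRNA transcripts and holds them for cutting by Drosha. Mesp1Cre acts in early mesoderm progenitors, so other mesodermal cells of the heart lose Dgcr8 along with the CMs. The control cells, labelled wild type, carried the floxed alleles and the reporter without Cre. 30 of their 74 cells passed the same CM criterion, and ranking them likewise gave 9 high and 9 low cells (6 and 3 of each by batch).

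A cell that divides copies its DNA in S phase, using helicases, polymerases and newly made histones, and then builds a spindle in mitosis. Kinetochores tie chromosomes to the spindle, cyclin B with Cdk1 drives entry, the anaphase-promoting complex ends mitosis by destroying cyclins, and a contractile ring guided by the central spindle splits the cell. Most genes of the last steps are transcribed late in the cycle, from promoters on which the MuvB complex with B-Myb or FoxM1 acts through a cell cycle homology region with the core TTTGAA, often near CCAAT boxes bound by NF-Y. In the embryonic heart, compact-layer CMs are known for faster division than trabecular CMs.

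The labels named no embryo for a cell, so the CMs counted as 1 sample and no test was possible. Differences are therefore given as means of log2(TPM + 1), mitotic-high minus mitotic-low, with the SD across cells, and a gene was counted only where the difference reached 1 log2 unit in the same direction in batch 1 and in batch 2. Read depth is unknown in TPM tables. The number of detected genes (TPM above 0) had a median of 9751 in mitotic-high and 9325 in mitotic-low cells of batch 1, and of 7913 and 7735 in batch 2. Across the 34 CMs of each batch, the ranking score and the number of detected genes had a Pearson r of 0.26 and 0.05. The mitochondrial share of TPM had a median of 2.28% against 3.45% in batch 1 and 2.37% against 3.03% in batch 2, with 18.6% in the most extreme low cell. In the middle group this share reached 19.3% in batch 1 and 20.6% in batch 2, and detected genes fell to 6645 and 4244 in single cells. In mitotic-high cells it reached 5.29% and 8.25%. With an adjustment for detected genes the list medians described below were 4.15 (cytokinesis), 3.40 (spindle), 2.76 (kinetochore), 1.04 (DNA replication) and -0.76 (p53 targets), and without the 2 mitotic-low cells above 10% mitochondrial TPM they were 4.21, 3.47, 2.76, 1.05 and -0.54. The higher and lower genes, 752 and 159 as defined below, numbered 542 and 321 with the adjustment and 647 and 217 without those cells. The latter setting also left out middle cells above 10% and filtered genes anew, which left 13456 genes.

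The ranking score of the mitotic-high cells ran from 6.32 to 8.20 in batch 1 (median 7.15) and from 5.57 to 8.27 in batch 2 (median 7.26). That of the mitotic-low cells ran from 0.67 to 2.95 (median 2.30) and from 0.39 to 1.69 (median 1.03). In batch 1 the last cell inside the high group had 6.32 and the first outside it 6.24, and the low group began at 2.95 below a middle cell at 2.97. In batch 2 these pairs were 5.57 and 5.56, and 1.69 and 2.21, so at 3 of the 4 limits the neighbouring cells had nearly equal scores. The 1 cKO cell under the CM criterion had a CM score of 7.74 and 61.4% mitochondrial TPM, and the lowest CM inside had 8.66. By construction all 8 ranking genes were higher, from 4.37 for Mki67 to 6.62 for Ccnb1, the cyclin of mitotic entry.

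**Figure D1:**
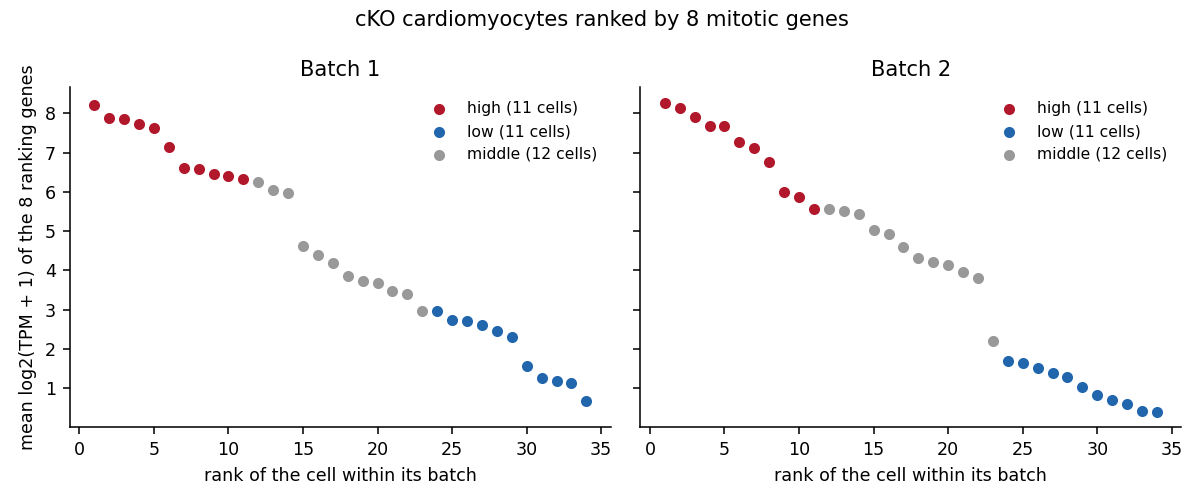
Mean log2(TPM + 1) of the 8 ranking genes (vertical axis) against the rank of each cKO CM within its batch (horizontal axis); each point is 1 cell and the colours mark the mitotic-high, middle and mitotic-low groups. The scores fall from 8.20 to 0.67 in batch 1 and from 8.27 to 0.39 in batch 2, and neighbouring cells at a group limit differ most at the low limit of batch 2 (2.21 and 1.69).

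The CM score, which selected the cells, had a median of 10.4 in the mitotic-high cells of either batch, and of 9.91 and 10.6 in the mitotic-low cells of batches 1 and 2. The 15 CM genes had a median difference of -0.01, from -0.56 for Csrp3 to 1.15 for Myh7. Outside those genes, the mean log2(TPM + 1) of 28 sarcomere genes was at least 4.58 in every mitotic-high and 3.75 in every mitotic-low cell. Of other cell types, summed TPM over 13 endothelial markers ran from 4.85 to 412 (median 52.6) in mitotic-high cells. In mitotic-low cells it ran from 2.76 to 245 (median 28.8). Only 1 of the 13, the tight-junction gene Cldn5, was at 0 in every mitotic-high cell. The sum over 14 mesenchymal markers had medians of 9.63 and 45.2, with Postn and Lum at 0 in all 44 cells. None of the 10 endothelial markers tested passed the fold in either direction, and of 9 mesenchymal markers the collagen Col3a1 (-1.13) and the PDGF receptor Pdgfra (-1.07) were lower. Of 4 epicardial markers tested Upk1b (-1.66) was lower, with median sums of 51.6 and 31.7 TPM over 6 markers, and none of 5 erythroid markers passed, with median sums of 29.7 and 6.15 TPM and Klf1 at 0 in all 44 cells. Over all genes, 5.48% were higher and 1.16% lower, as given below. The part of these marker transcripts in the differences below was not tested.

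Of 13722 genes outside the 23 selecting genes, 752 (5.48%) were higher and 159 (1.16%) lower in mitotic-high CMs by this count, and 362 (2.64%) passed the fold in opposite directions in the 2 batches. At 2 log2 units in both batches, 143 genes were higher and 8 lower, against 16 that went opposite ways. The median difference over all genes was 0.10, with 0.17 in batch 1 and 0.03 in batch 2. Since the ranking used these cells, genes that vary with the 8 ranking genes had to differ, and the counts describe which ones did.

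**Figure D2:**
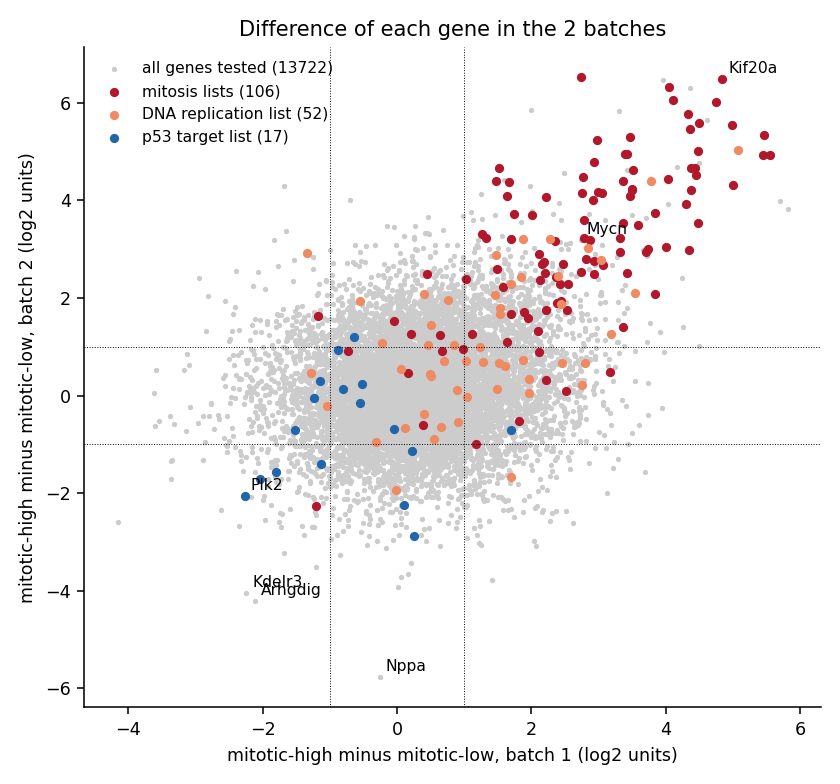
Difference between mitotic-high and mitotic-low cKO CMs in batch 1 (horizontal) and batch 2 (vertical), in log2 units; each point is a gene, dotted lines mark 1 log2 unit, and colours mark the mitosis, DNA replication and p53 target lists. Mitosis genes fill the upper right, where 89 of 106 lie beyond 1 log2 unit on both axes, while Nppa is low in batch 2 only.

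Genes of the spindle and of cell separation made up 9 of the 15 that led the comparison. By the rule that ranked genes on the smaller of the 2 batch differences, the 15 leading genes included Kif22, Asf1b, Tpx2, Ect2, Aurka, Kif20a, Prc1, Cdca3, Shcbp1, Cdca8, Kif23, Kif11, Ccnf and Hist1h2ap. Promoter windows came from RefSeq (GRCm38.p6, 250 bases before to 50 after the start of a transcript). As examples of TTTGAA (or its reverse complement TTCAAA) in genes that led the comparison, the 30 bases around it are shown for 3 in which they lie wholly upstream of the annotated gene, 5′ to 3′ on the strand of the gene. Capitals mark the core.
Asf1b: ggaaggcggagccggctaTTTGAAgggagc
Kif11: ggtcagtcgtctccatttTTCAAAattgag
Ccnf: gtaggagctcccggcgcgTTTGAAaacggg

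These stretches lie at chr8:83955662-83955691 (Asf1b, plus strand), chr19:37376345-37376374 (Kif11, plus) and chr17:24251412-24251441 (Ccnf, minus). The core began 14, 19 and 14 bases before the start, in that order. Of 27025 genes with a window, expressed in these CMs or not, 20.2% held TTTGAA, 41.1% CCAAT and 7.97% both. Among the mitosis genes of the lists described next, 90 of 106 had a window, and 57.8% held TTTGAA, 65.6% CCAAT and 44.4% both. Of 43 matched genes of the DNA replication list, 18.6% held TTTGAA and 27.9% an E2F motif (TTTCGCGC or TTTGGCGC, either strand, no match of which is a match of the others), against 5.56% of the mitosis genes and 0.93% of all genes with a window. None of the 13 matched genes among the 15 leading lower genes held TTTGAA and 5 held CCAAT. Fewer than 80% had a window among all genes tested (71.4%) and among the 15 leading higher genes (66.7%). The same held for all genes past the fold (77.4% of the higher and 73.0% of the lower). A motif count over any of these would be void and none is given. The shares over all genes with a window therefore do not stand for genes expressed in these CMs. A match describes letters only.

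Kif22, a chromosome-arm kinesin, had in batch 1 a lowest, median and highest log2(TPM + 1) of 4.55, 6.48 and 8.10 in mitotic-high CMs and of 0, 0.52 and 5.30 in mitotic-low CMs. In batch 2 its values were 0, 7.48 and 8.06 against 0, 0 and 6.11. A single mitotic-high cell of batch 2 lacked the transcript, and 3 mitotic-low cells of that batch carried it at levels seen among the high cells of batch 1. The difference was 5.40, from 6.63 ± 1.82 (SD, 22 cells) to 1.23 ± 2.06. Aurka, the kinase of spindle poles, differed by 5.18: in batch 1 the mitotic-high cells ran from 5.01 to 8.96 and the mitotic-low cells from 0 to 4.78, with no overlap. In batch 2 the groups overlapped, since 2 mitotic-high cells had no Aurka and a mitotic-low cell reached 6.03. Tpx2, which activates Aurka on spindle microtubules, differed by 5.26 and reached a TPM of 1 in 20 mitotic-high and 4 mitotic-low CMs.

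The spindle and chromosomal passenger list had a median of 3.45, with 2.97 and 3.93 by batch. All 29 of its tested genes passed the fold as higher, beside 5.48% of all genes. They included Birc5 (5.08) and Cdca8 (5.04), partners of Aurkb in the passenger complex, and the motor Kif11 (4.48), which pushes spindle poles apart. In Kif11, every mitotic-high cell of batch 2 (1.97 to 6.76) lay above every mitotic-low cell (0 to 0.78), whereas in batch 1 the ranges 2.88 to 6.68 and 0 to 5.46 overlapped. Cdca8 was the steadiest of the leading genes, at 7.68 ± 0.81 in mitotic-high CMs against 2.64 ± 2.28. The smallest differences in this list were 1.80 for Numa1, a spindle pole protein, and 1.99 for the kinesin Kif14.

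Genes of cytokinesis had the highest list median, 4.23 (4.04 and 4.58 by batch). Of 10, 9 passed the fold as higher, beside 5.48% of all genes. Kif20a (5.67), Prc1 (5.38), Ect2 (5.24), Kif23 (4.75) and Racgap1 (4.29) build the central spindle and signal from it to the contractile ring. Kif20a did not overlap between the groups in batch 2, at 1.45 to 8.24 against 0 to 1.20. Prc1, which bundles the central spindle, reached a TPM of 1 in all 22 mitotic-high CMs and also in 11 of 22 mitotic-low CMs, at 7.00 ± 1.52 against 1.62 ± 2.01. Of the 10 cytokinesis genes, a mitotic-high CM had a median of 9 at a TPM of at least 1 in either batch and a mitotic-low CM a median of 2. Arhgap11a alone stayed under the fold, with 2.12 and 0.90 in the 2 batches.

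Regulators of mitotic entry and exit gave 13 of 16 higher genes and 1 lower (median 2.78), beside 5.48% and 1.16% of all genes. Cdc20 (5.19) and Ube2c (5.05) work in the anaphase-promoting complex pathway, and Ccnf (4.55) is the cyclin F of an SCF ubiquitin ligase. In Ccnf, 8 of 11 mitotic-high CMs of batch 1 and 10 of 11 of batch 2 lay above every mitotic-low CM. In batch 1 it ran from 0 to 7.41 (median 5.35) in mitotic-high and from 0 to 0.79 in mitotic-low CMs, and in batch 2 from 0.52 to 6.91 (median 6.05) and from 0 to 1.12. It was low in the middle group as well (mean 0.98 against 0.19 in mitotic-low CMs). The lower gene was Pkmyt1, a kinase that holds Cdk1 inactive, with -1.73 (-1.21 and -2.26 by batch). Its partner in that task, Wee1, was higher by 1.68, and Cdc25a, an activator of cyclin-dependent kinases at the start of S phase, differed by -0.11.

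Of 34 kinetochore and checkpoint genes, all had a difference above 0 and 29 passed the fold (median 2.90), beside 5.48% of all genes. Among the 29 were Ndc80 (4.38), which binds microtubules at the kinetochore, and the checkpoint kinase Bub1b (4.24). Mad1l1 and Cenpt, at 0.09 each, moved opposite ways in the batches. In the condensin, cohesin and separase list, 9 of 17 genes passed the fold (median 1.77), beside the same 5.48%. The condensin genes Smc4 (3.46), Ncapg (3.44) and Smc2 (3.37) led it. The cohesin gene Rad21 (2.40) passed as well, whereas Stag2 (0.31) and Smc1a (0.64), also of cohesin, and securin, Pttg1 (0.22), did not.

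Over these 5 lists together, 89 of 106 mitosis genes (84.0%) were higher and 1 lower, 104 had a difference above 0, and the median was 2.95 (2.77 in batch 1 and 3.18 in batch 2), next to 5.48% and 0.10 over all genes. Averaged per cell, the 106 genes ran from 3.15 to 5.56 in mitotic-high CMs of batch 1 and from 0.97 to 2.73 in mitotic-low CMs. In batch 2 the ranges were 3.75 to 5.68 and 1.05 to 2.48. No mitotic-high cell overlapped a mitotic-low cell of its batch, and a mitotic-high CM had a median of 87 (batch 1) or 90 (batch 2) of the 106 genes at a TPM of at least 1, against 43 in mitotic-low CMs of either batch. The middle CMs lay between, with a median of 68 and 66 genes and a median difference of 1.17 to the mitotic-low group. In 94 of the 106 genes (88.7%) the 3 groups stood in the order high, middle, low, as they did in 22.4% of all genes tested. Of the 143 genes higher by at least 2 log2 units in both batches, 67 were in these lists, 12 in the replication or histone lists and 59 in no list. Cdca3 (5.13) and Shcbp1 (4.63) belonged to the last kind.

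**Figure D3:**
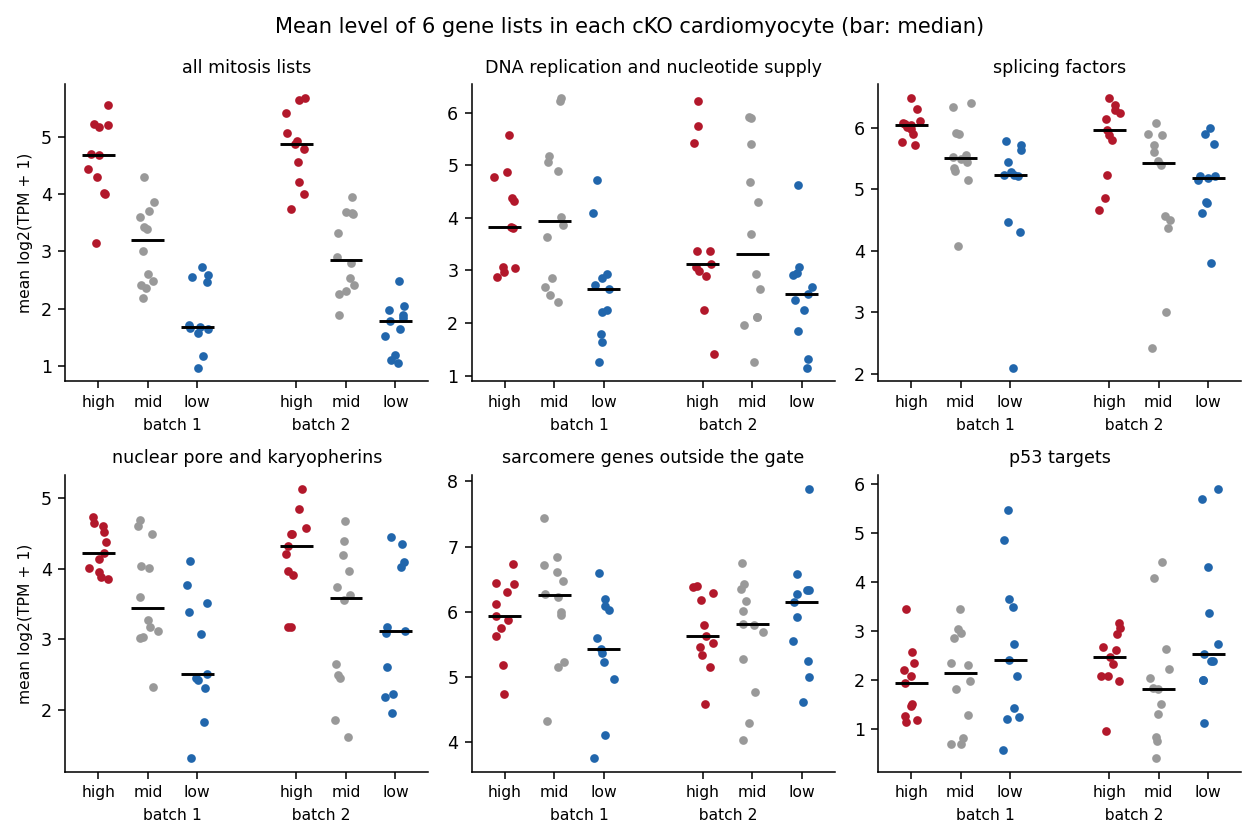
Mean log2(TPM + 1) of 6 gene lists (vertical axes) in each cKO CM of the mitotic-high, middle and mitotic-low groups of the 2 batches (horizontal axes); each point is 1 cell and bars are medians. The mitosis genes separate high from low cells completely, the replication genes are at least as high in the middle cells as in the high cells by median, and the p53 target scores above 4 fall in middle and low cells only.

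The DNA replication list had similar medians in the mitotic-high and middle groups. Of 52, 17 were higher and none lower (median 1.05, with 1.37 and 0.72 by batch), beside 5.48% and 1.16% of all genes. The middle CMs, however, stood 1.21 above the mitotic-low CMs by the same median. In 25 of the 52 genes (48.1%) the middle mean exceeded the mitotic-high mean, as it did in 6.60% of the mitosis genes and 30.4% of all genes tested. The list average overlapped between the groups, at 2.87 to 5.57 against 1.26 to 4.72 in batch 1 and 1.41 to 6.22 against 1.15 to 4.62 in batch 2, and middle cells reached 6.28 and 5.93. Asf1b, a chaperone of new histone H3 and H4, led the list: in batch 1 it ran from 5.05 to 7.63 (median 6.74) in mitotic-high and from 0 to 6.35 (median 0.30) in mitotic-low CMs, and in batch 2 from 0 to 7.98 (median 6.07) and from 0 to 5.91 (median 0). The difference was 5.06, with 6.10 ± 1.74 against 1.04 ± 2.07. Gmnn (4.09), which blocks a second round of origin licensing, and Rrm2 (2.93), the regulated subunit of ribonucleotide reductase, followed. The helicase subunits Mcm6 (-0.97) and Mcm2 (-0.62), loaded onto origins before S phase, were among those with the smallest values and did not pass the fold.

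Replication-dependent histone genes had 33 of 70 members tested. Of these, 14 were higher and none lower (median 1.64), beside 5.48% and 1.16% of all genes. The list median depended on the detection filter and was 0.50 with no filter. Hist1h2ap ran from 7.89 to 12.83 in mitotic-high against 0.09 to 11.35 in mitotic-low CMs of batch 1, and from 5.79 to 11.11 against 0 to 8.17 in batch 2. Its middle mean, 9.23, was close to the mitotic-high mean of 9.64 and far from the mitotic-low mean of 4.31. These genes are near-identical copies whose reads can be shared, and most of their transcripts lack a poly(A) tail, so single members are uncertain. Among chromatin proteins and tubulins 13 of 21 were higher and 1, Tubb2a (-1.55), was lower (median 1.59). H2afx, a histone H2A variant, differed by 3.93, the lamin Lmnb1 by 2.32 and Hmgb3 by 2.06.

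Of 14 cell cycle transcription factors, 6 were higher (median 1.06). They included E2f5 (2.60), Mybl2 (2.04), which is B-Myb, its MuvB partner Lin54 (2.00) and Foxm1 (2.00). The S phase activator E2f1 differed by -0.13. G1 cyclins and kinases had a median of 0.01, with a single gene past the fold, Ccne2 (1.51). Ccnd2 (1.40) missed it in batch 2, and Ccnd1 went 0.86 in batch 1 and -0.97 in batch 2. Of 13 cell cycle inhibitors, none was higher and only Cdkn1a was lower. Over all genes, 5.48% were higher and 1.16% lower.

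Cdkn1a encodes p21, an inhibitor of cyclin-dependent kinases and a target of p53. It ran from 0 to 9.46 (median 1.61) in mitotic-high and from 0 to 11.19 (median 7.06) in mitotic-low CMs of batch 1, and from 0 to 9.71 (median 6.67) and from 0 to 11.75 (median 9.80) in batch 2. The groups overlapped over almost the whole range, and 3 mitotic-low cells of batch 2 had none. Its difference was -1.68. Of 17 p53 targets, 4 were lower and none higher, beside 1.16% and 5.48% of all genes: Plk2 (-2.16), Trp53inp1 (-1.87), Cdkn1a and the receptor gene Eda2r (-1.26). The list median was -0.46 over both batches and -0.80 and -0.70 within them. The middle CMs also stood below the mitotic-low CMs, by a list median of -0.97, beside -0.10 over all genes. In 6 of the 17 genes (35.3%) the middle mean exceeded the mitotic-high mean, as it did in 30.4% of all genes tested. Lower levels of this list were thus not particular to the mitotic-high group. The per-cell mean of the list exceeded 4, a limit chosen after the values were seen, in 5 of 22 mitotic-low cells (2 of batch 1 and 3 of batch 2), 2 of 24 middle cells and none of the mitotic-high cells. In control CMs it did so in none of 9 mitotic-low, 3 of 12 middle and 1 of 9 mitotic-high cells. In the mitotic-low cells above it, the mean ran from 4.30 to 5.90. The group medians themselves lay close together, at 1.94 against 2.41 in batch 1 and 2.48 against 2.54 in batch 2.

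**Figure D4:**
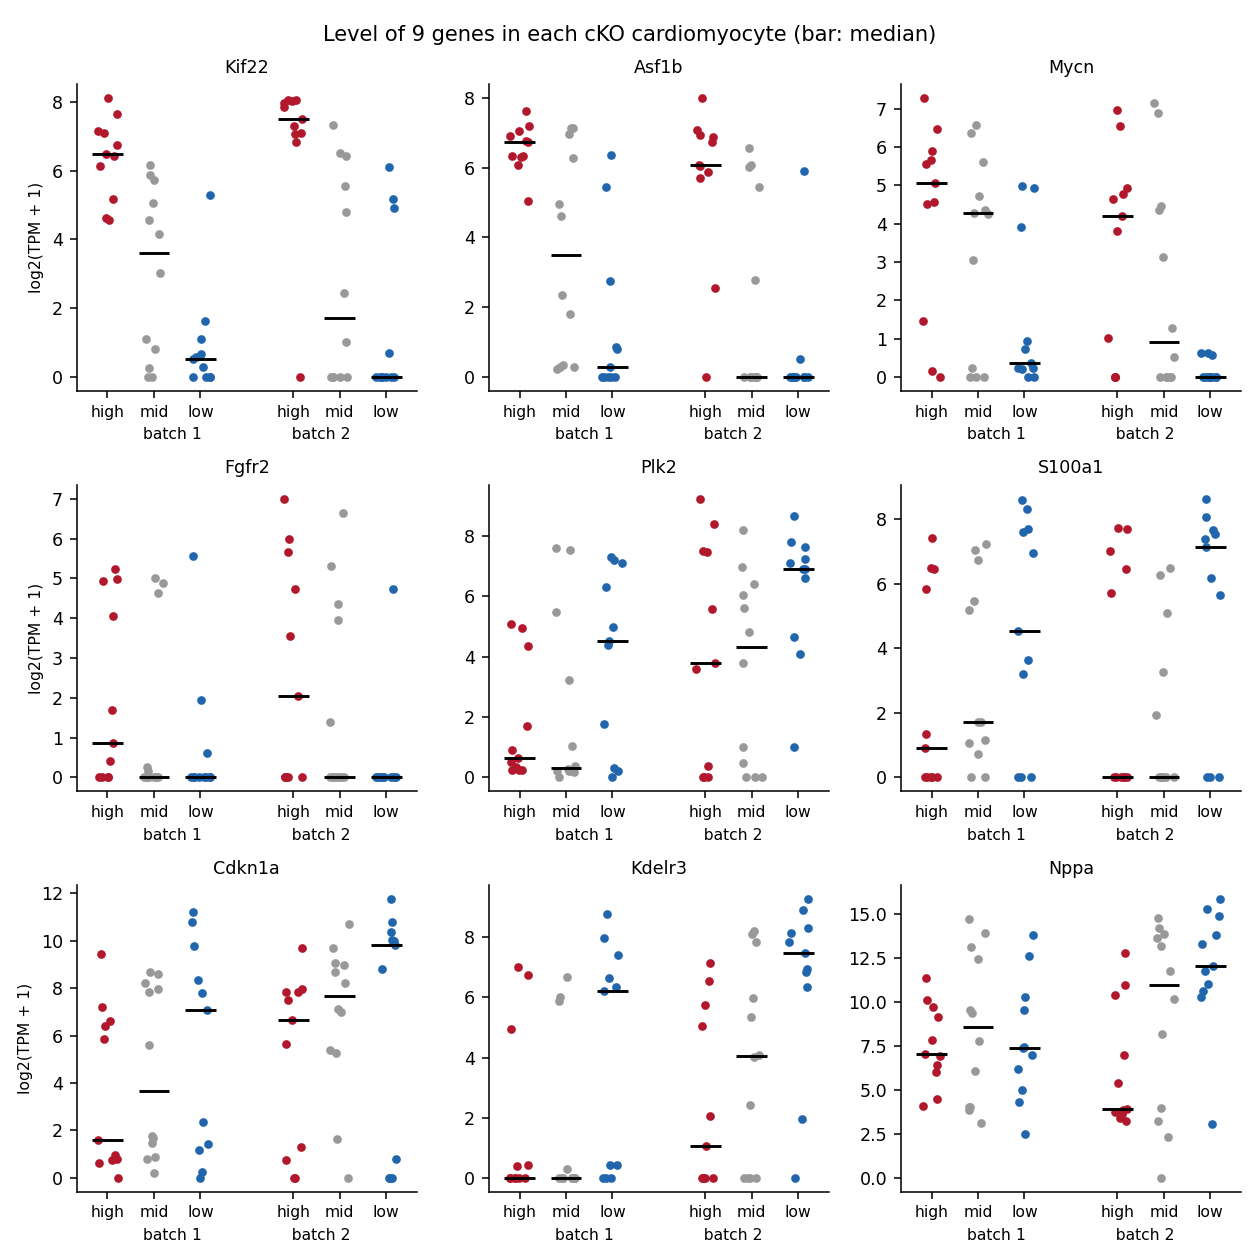
log2(TPM + 1) of 9 genes (vertical axes) in each cKO CM by group and batch (horizontal axes); each point is 1 cell and bars are medians. Kif22 and Asf1b are near 0 in most low cells, Mycn is at most 0.62 in every low cell of batch 2, and Plk2, S100a1, Cdkn1a and Kdelr3 are spread in both groups with higher medians in low cells.

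The 15 leading genes in the lower direction were Arl8a, Zfyve21, Kdelr3, Arhgdig, Plk2, S100a1, Sat1, Creg1, Acp2, Gpr107, H13, Ndrg1, Uchl1, Mob3a and Bcr, with differences from -1.72 (Mob3a) to -3.16 (Arhgdig). None separated the groups. Kdelr3, a receptor that returns proteins to the endoplasmic reticulum, ran from 0 to 7.02 (median 0) in mitotic-high and from 0 to 8.79 (median 6.21) in mitotic-low CMs of batch 1, and from 0 to 7.14 (median 1.07) and from 0 to 9.27 (median 7.48) in batch 2. Its difference was -3.14, at 2.14 ± 2.90 against 5.29 ± 3.53. S100a1, a calcium sensor of heart muscle, reached a TPM of 1 in 10 mitotic-high and 16 mitotic-low CMs, and its difference was -2.08. Arl8a, a small GTPase that moves lysosomes, was at most 2.35 in all mitotic-high CMs, while 12 of 22 mitotic-low CMs reached a TPM of 1, with values up to 8.33. Acp2, a lysosomal acid phosphatase, differed by -2.06. Plk2, a kinase induced by stress, was at 1.02 or more in every mitotic-low CM of batch 2 and below that in 4 mitotic-high CMs. Uchl1, a deubiquitinase, was at 4.94 or more in every mitotic-low CM of batch 2 and below that in 4 mitotic-high CMs, whereas in batch 1 it ran from 0 to 7.41 and from 0 to 7.79.

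Contractile genes did not follow the ranking. Of 28 sarcomere genes outside the selecting set, 2 were higher, the myosin light chain kinase Mylk3 (1.85) and Tnni3 (1.38), the cardiac troponin I, and 1 was lower, Pdlim3 (-1.68). These shares were 7.14% and 3.57%, beside 5.48% and 1.16% of all genes. The list median was 0.12, with 0.62 in batch 1 and -0.22 in batch 2, and the sign was also negative for ratios of mean TPM, after adjustment for detected genes and with a CM limit of 9. The list average ran from 4.74 to 6.73 in mitotic-high and from 3.75 to 6.59 in mitotic-low CMs of batch 1, and from 4.58 to 6.39 and 4.62 to 7.89 in batch 2. Of 22 genes of calcium handling and excitation, only the connexin Gjc1 (1.60) passed the fold (4.55%, median 0.01), near the share over all genes. Of 28 actin cytoskeleton and adhesion genes none did (median -0.11).

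Among genes of the ventricular wall, the compact-layer list had 3 of 8 genes higher and none lower (median 0.87), and the trabecular list 1 of 10 in each direction (median -0.14), beside 5.48% higher and 1.16% lower over all genes. Mycn, which drives growth of compact myocardium, ran from 0 to 7.27 (median 5.06) in mitotic-high and from 0 to 4.97 (median 0.36) in mitotic-low CMs of batch 1, and from 0 to 6.96 (median 4.20) and from 0 to 0.62 (median 0) in batch 2. It reached a TPM of 1 in 17 of 22 mitotic-high and 3 of 22 mitotic-low CMs, and differed by 2.96, from 3.79 ± 2.56 to 0.83 ± 1.57. Fgfr2 (1.74), a receptor of fibroblast growth factors, and Tbx20 (1.45) were the others. Mest (-1.96) went the other way, with -3.32 in batch 1 and -0.59 in batch 2. Of 24 cardiac transcription factors, Tbx20, Mef2c (1.36), Gata4 (1.31) and Hopx (1.26) were higher and none was lower, beside the same 5.48% and 1.16%.

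Of the trabecular natriuretic peptides, Nppa was lower past the fold in batch 2 only. Nppa ran from 3.23 to 12.78 (median 3.90) in mitotic-high and from 3.06 to 15.85 (median 12.04) in mitotic-low CMs of batch 2, a difference of -5.78, whereas in batch 1 it ran from 4.11 to 11.37 (median 7.06) and from 2.51 to 13.81 (median 7.40), a difference of -0.26. Nppb was lower in both, with -1.21 and -3.51 (-2.36 together). Cited1 (1.65), a trabecular coactivator, was higher. The secreted YAP target Ctgf was lower, at -2.10, with -2.88 in batch 1 and -1.32 in batch 2. Tead3, a DNA-binding partner of YAP, was at -1.67. Thus 2 of 18 growth and YAP genes were lower and 1, Mycn, higher, beside 1.16% and 5.48% of all genes. Vegfa went 1.20 in batch 1 and -1.84 in batch 2, and of the 8 angiogenesis genes on the list taken from the study, only Ctgf passed the fold.

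Of genes for nuclear transport and RNA processing, 11 of 31 nuclear pore and karyopherin genes (median 1.24) and 12 of 69 splicing genes (median 0.88) were higher and none was lower, beside 5.48% and 0.10 over all genes. Kpna2, an importin, differed by 4.84 and separated 10 of 11 mitotic-high CMs of batch 1 from every mitotic-low CM, but 5 of 11 in batch 2. Rangap1, which acts at pores and kinetochores, differed by 2.81 and Lsm3, a ring protein of U6 RNA, by 3.07. Proteasome genes gave 1 of 36 higher (Psmd13, 1.59), ribosomal protein genes none of 79 higher and 1 lower, glycolysis none of 20 in either direction, and oxidative phosphorylation 1 of 81 in each direction (Ndufb7 at 1.27 and Ndufa4l2 at -1.42). The 13 genes of the mitochondrial genome had a median of -0.44 and none passed the fold. Of 15 hypoxia targets, Ndrg1 (-2.17) and Adm (-1.53) were lower, beside 1.16% of all genes. None of 14 immediate early and dissociation genes passed, with Fos at -1.04 and Egr1 at -1.25.

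In the microRNA processing list, 2 of 11 genes were higher and none lower, beside 5.48% and 1.16% of all genes. They were Xpo5 (1.20), which exports precursor microRNAs, and Mir17hg (2.44), the host transcript of the miR-17 to miR-92a cluster. Mir17hg ran from 0.57 to 8.66 (median 6.34) in mitotic-high and from 0.65 to 8.06 (median 5.32) in mitotic-low CMs of batch 1, and from 4.70 to 8.09 (median 5.95) and from 0 to 7.66 (median 0.91) in batch 2. Dgcr8 itself, the deleted gene, had 1.44 ± 2.30 in mitotic-high and 1.86 ± 2.38 in mitotic-low CMs, and reached a TPM of 1 in 6 and 8 cells. In the 9 high and 9 low control CMs its means were 3.25 and 0.31. The high control cells also had more detected genes by median, and the control median difference over all genes was 0.53. A TPM covers the whole transcript and does not show which exons were read.

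**Figure D5:**
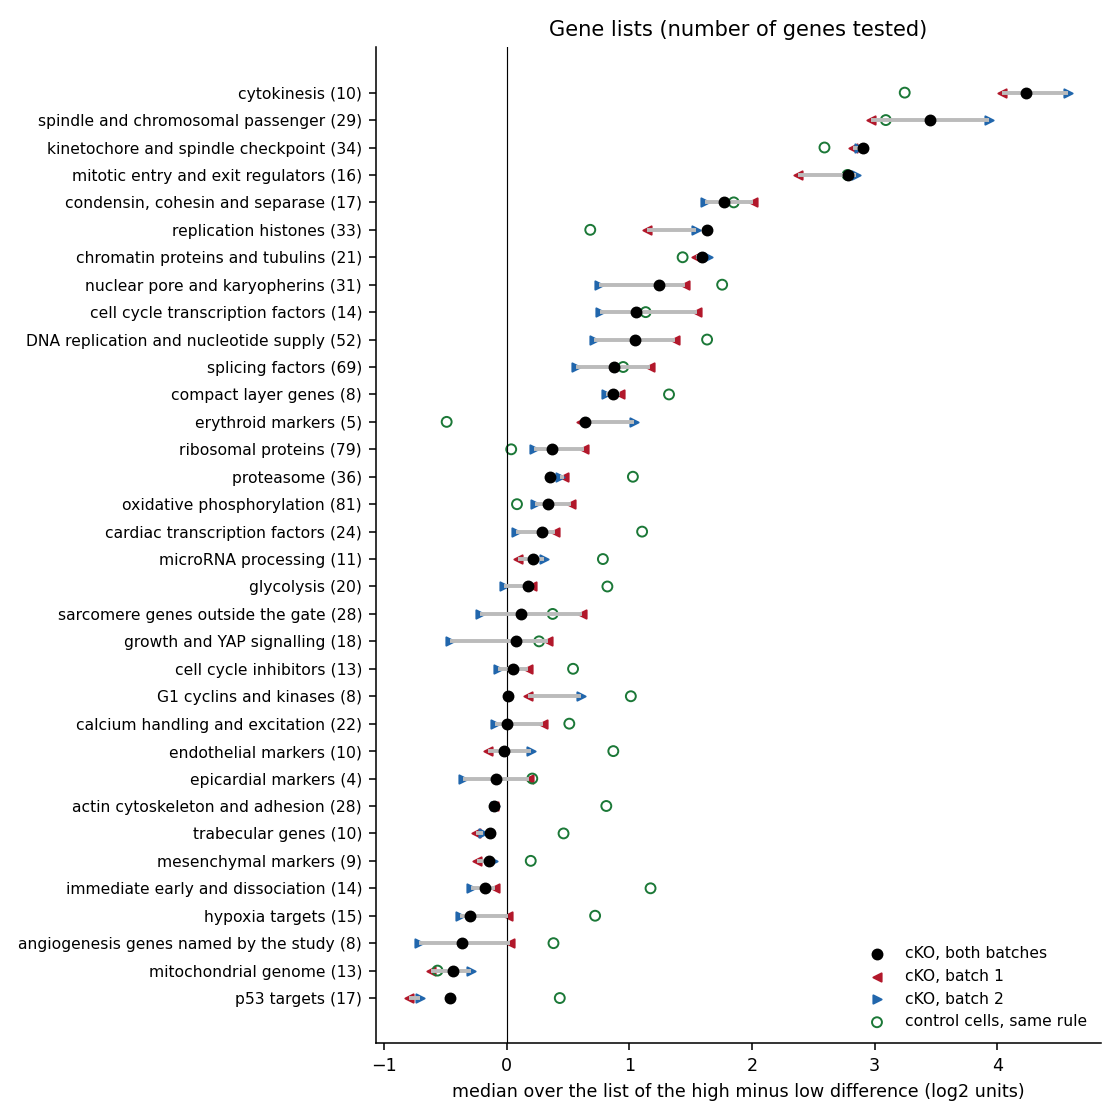
Median difference, high minus low in log2 units (horizontal axis), of 34 gene lists with the number of genes tested in parentheses (vertical axis); black points are both batches of cKO CMs, triangles the single batches and open circles the control CMs ranked by the same 8 genes. The 5 mitosis lists lead at 1.77 to 4.23 in cKO CMs, and p53 targets are lowest at -0.46 in cKO CMs and at 0.43 in control CMs. The median over all genes was 0.10 in cKO and 0.53 in control CMs.

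The same ranking in control CMs gave a median of 2.73 for the 106 mitosis genes over 9 high and 9 low cells, beside 2.95 in cKO CMs. The control median over all genes was 0.53, well above the 0.10 of the cKO, so control values are read against that. Detected genes had a median of 9079.5 in high and 7692 in low control CMs of batch 1, and of 10574 and 9394 in batch 2. Among the low control CMs of batch 2, 1 cell had 3805 detected genes and a ranking score of 1.16. Another had a ranking score as high as 5.14, with 9993 detected genes. Of the 752 higher genes, 539 (71.7%) were above 0 in each of the 2 control batches, as were 50.2% of all genes tested. Of the 159 lower genes, 19 (11.9%) were below 0 in each control batch, as were 8.49% of all genes. The control median of the p53 targets was 0.43 and that of the DNA replication genes 1.63, beside -0.46 and 1.05. Mycn differed by 3.17 in control CMs, Kdelr3 by 0.47 and S100a1 by -0.19. The difference between genotypes was not tested. Over all ranked cells the score of the 8 ranking genes was 4.36 ± 2.45 in 68 cKO and 4.65 ± 2.14 in 30 control CMs, so the spread was wide in both.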

How the data were processed

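Single cells of dissected E9.5 ventricles were picked by mouth pipette, amplified by Smart-seq2 and sequenced on a HiSeq4000. Per the labels and the study's methods, the authors estimated expression with Salmon against mm10 and left out poorly mapped cells and cells whose reporter colour went against the genotype. The deposited table holds TPM values per gene and cell (Salmon version not given in the sources used here) without read counts. Column sums ran from 996133 to 999999. It has 143 columns for 170 labelled samples, and the other 27 samples were not analysed here.

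Groups, batches and genotypes came from the sample titles. Values were taken as log2(TPM + 1) with pandas 2.3.3 and numpy 2.4.6 under Python 3.11.15. A gene was tested when its TPM was above 0 in more than 10 of the 68 ranked CMs, and counted when high minus low reached 1 log2 unit in each batch. Log2 differences understate the change of genes near 0. The genes named were the selecting genes, the 15 per direction with the greatest smaller-of-2-batches difference (TPM of at least 1 in at least 11 of the 22 cells of the group where they were higher, unnamed models left out), up to 4 greatest and 3 smallest members of each list, and list-defining members; some genes that the rule names are not reported here, and features singled out for other reasons were chosen after their values were seen. The members, gene lists and tests were chosen with earlier results of these data known. Cells are not replicates, so no p-value was computed. The count was tried on simulated data. Promoters came from RefSeq (GRCm38.p6). Alternatives covered the pseudocount, filter, batch, group size, ranking, scale, depth adjustment, CM limit and ranking genes.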

Additional observations from a re-analysis of the deposited data

Results flagged for a closer look

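Control groups of 4 to 10 cells were checked for a cell far from the others, each on several list scores, in 36 checks. Chance alone would pick out about 1 in 20 of independent checks. These shared cells and included the ranking score, so they were not independent. A single one stood out. In the mitotic-high control CMs of batch 1, the mean log2(TPM + 1) of the p53 target list was 1.21 in 1 cell, while the median of the 6 cells was 1.97. The cKO groups hold more than 10 cells per batch and were not checked this way.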

How the results depend on the processing

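The 22 alternatives left all 30 leading genes with their direction (660 of 660 values). These genes were picked for a difference in both batches of the same cells, so their signs in single batches were fixed in advance. Changes of the gene filter did not touch their values, so this count does not measure robustness. Of the 34 list medians, 20 kept their sign throughout. The 14 others changed sign in at least 1 setting: G1 cyclins, inhibitors, sarcomere, calcium, growth, glycolysis, mitochondrial genome, actin, angiogenesis, hypoxia, immediate early, endothelial, mesenchymal and epicardial genes. The 752 higher genes became 1411 with a pseudocount of 0.1 and 196 with 10, 2532 in batch 1 alone, 2048 in batch 2 alone and 452 when each batch was cut at its middle. The 159 lower genes became 396 and 13 by pseudocount, 884 and 1258 by batch and 57 when cut at the middle. They also became 246 when 8 cells per group and batch were compared, 419 with ratios of mean TPM, 321 after adjustment for detected genes, 242 when Cdk1 was left out of the ranking and 76 when a TPM of at least 1 was required in 34 of the 68 cells. A pseudocount of 0.1 or 10 gave medians of 3.85 and 1.46 for kinetochore, 5.02 and 1.59 for spindle, 3.02 and 0.82 for condensin and cohesin, 5.99 and 2.25 for cytokinesis, 4.17 and 1.54 for entry and exit, and 1.67 and 0.42 for transcription factor genes. Cutting at the middle gave 2.05 for kinetochore, 2.28 for spindle and 2.96 for cytokinesis genes, and ratios of mean TPM 2.23 for kinetochore genes. The stricter filter gave 3.79 for entry and exit, 0.50 for endothelial, -0.75 for mesenchymal and 1.48 for epicardial genes, and no filter gave 0.50 for histone genes. Single batches and fewer cells per group call more or fewer genes by construction; the cause of the other changes was not tested. The setting without cells above 10% mitochondrial TPM (2 mitotic-low cells and some middle cells) was chosen with the data already seen. No paired analysis was possible because no result comes from a test. Depth per cell is unknown, so a TPM of 0 may be a missed transcript.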

Other observations

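Among the 59 genes of no list that were higher by at least 2 log2 units in both batches, the following are examples picked after their values were seen. Depdc1a (difference 3.32) reached a TPM of 1 in 15 mitotic-high and none of the mitotic-low CMs, and Aspm (2.93), a spindle pole protein, in 17 and 1. Poc1a (3.52), a centriole protein, and Haus4 (3.17), a subunit of the augmin complex, reached it in 18 and 17 mitotic-high against 8 and 4 mitotic-low CMs. Cdca2 (4.81), which recruits a phosphatase to chromosomes at anaphase, Pbk (4.03), a mitotic kinase, and Trip13 (2.58), which recycles checkpoint complexes, were higher as well. Nrp1 (2.34), a coreceptor of VEGF and semaphorins, reached a TPM of 1 in 20 mitotic-high and 16 mitotic-low CMs.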
